A study of Rattus norvegicus with 21 samples.

Results

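Solute carriers are a large group of membrane transporters for small molecules, and their genes carry symbols that start with Slc and a family number. They bring glucose, amino acids, vitamins and metal ions into the cell, load secretory granules and vesicles, carry nucleotide sugars into the Golgi apparatus, and link the cytosol with the mitochondrial matrix. In the pancreatic beta cell glucose uptake, zinc loading of insulin granules, sodium and calcium exchange and mitochondrial metabolite carriers all depend on members of this group.

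The 129 genes described here are the Slc genes that the array measured above a fixed level. Of 13438 genes with a probe set of their own, 284 had a symbol of this form. From these, 10 were left out by name (Slc2a2, Slc7a1, Slc7a2, Slc7a3, Slc7a5, Slc7a11, Slc3a2, Slc1a4, Slc1a5 and Slc38a2), and 145 had a mean below 6 on the log2 scale over the 21 arrays. A gene was read from its probe set with the highest mean, and 3 probe sets that name several genes were not used. The genes nearest to the limit were Slc8b1 (mean 6.08) and Slc35a2 (6.10) on the inside and Slc26a6 (5.94) and Slc30a1 (5.91) on the outside. The limit used the level over all arrays, so a level above it is not a finding. A gene that reached the limit through the groups in which it was high had to differ between groups, and 20 of the 129 had a group mean below 6. Counts below are therefore descriptions of the genes that passed the limit, not of all solute carriers, and several of the genes left out by name were strongly raised.

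All samples were cells of INS-1, a rat insulinoma line that is used as a model of the beta cell, with 3 arrays in each of 7 groups. Untransfected cells (INS1) were measured without cytokines only. The line pcDNA carried an empty vector and the line pCTSH#1 (pCTSH1 in the sample titles), which is a single clone, was stably transfected to overexpress cathepsin H, a lysosomal protease; each was measured at 0, 6 and 16 h of exposure to 150 pg/ml mouse IL-1β with 5 ng/ml rat IFNγ. No arrays without cytokines at 6 or 16 h were analysed here, so the cytokines and the time in culture cannot be told apart. Whether replicates came from separate cultures is not given by the labels. The p-values thus rest on the spread among arrays, which may be technical, and the number of arrays limits the precision.

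The values were log2 intensities. Background, the highest nonspecific control on each array, lay between 3.88 and 4.17, and 61.4% to 71.0% of probe sets were above it. Replicate arrays correlated at 0.992 to 0.997. The defining beta-cell markers measured (Ins1, Ins2, Iapp, Pdx1, Nkx6-1 and Chga) were above background on all arrays. Their mean level lay between 11.90 and 12.00 on the pcDNA arrays at 0 h, 11.20 and 11.31 at 6 h and 10.83 and 10.87 at 16 h, and among them Nkx6-1 fell (means 8.46, 5.32 and 5.45), as did Pdx1 (9.73, 9.22 and 7.74). The alpha-cell gene Gcg was above background on all arrays and had means that moved with time in pcDNA (8.60, 7.99 and 6.26). Markers of fibroblasts, acinar, duct and endothelial cells lay at or near background, as did Sst, Ppy, Ptprc and Cd3e, while the macrophage gene Cd68 read 4.69 at 0 h and 5.52 at 16 h. The part of these movements in the results below was not tested. In bulk samples fewer cells of a type and less RNA per cell cannot be told apart.

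All 129 genes were above background on every array, with means from 6.08 to 12.62. The distance between the highest and the lowest of a gene's 7 group means had a median of 0.993 (range 0.136 to 3.70), against a median SD between replicate arrays of 0.103. This distance was above 1 for 64 genes and above 2 for 16. Levels of different genes come from different probe sets and are not compared with each other.

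**Figure D1:**
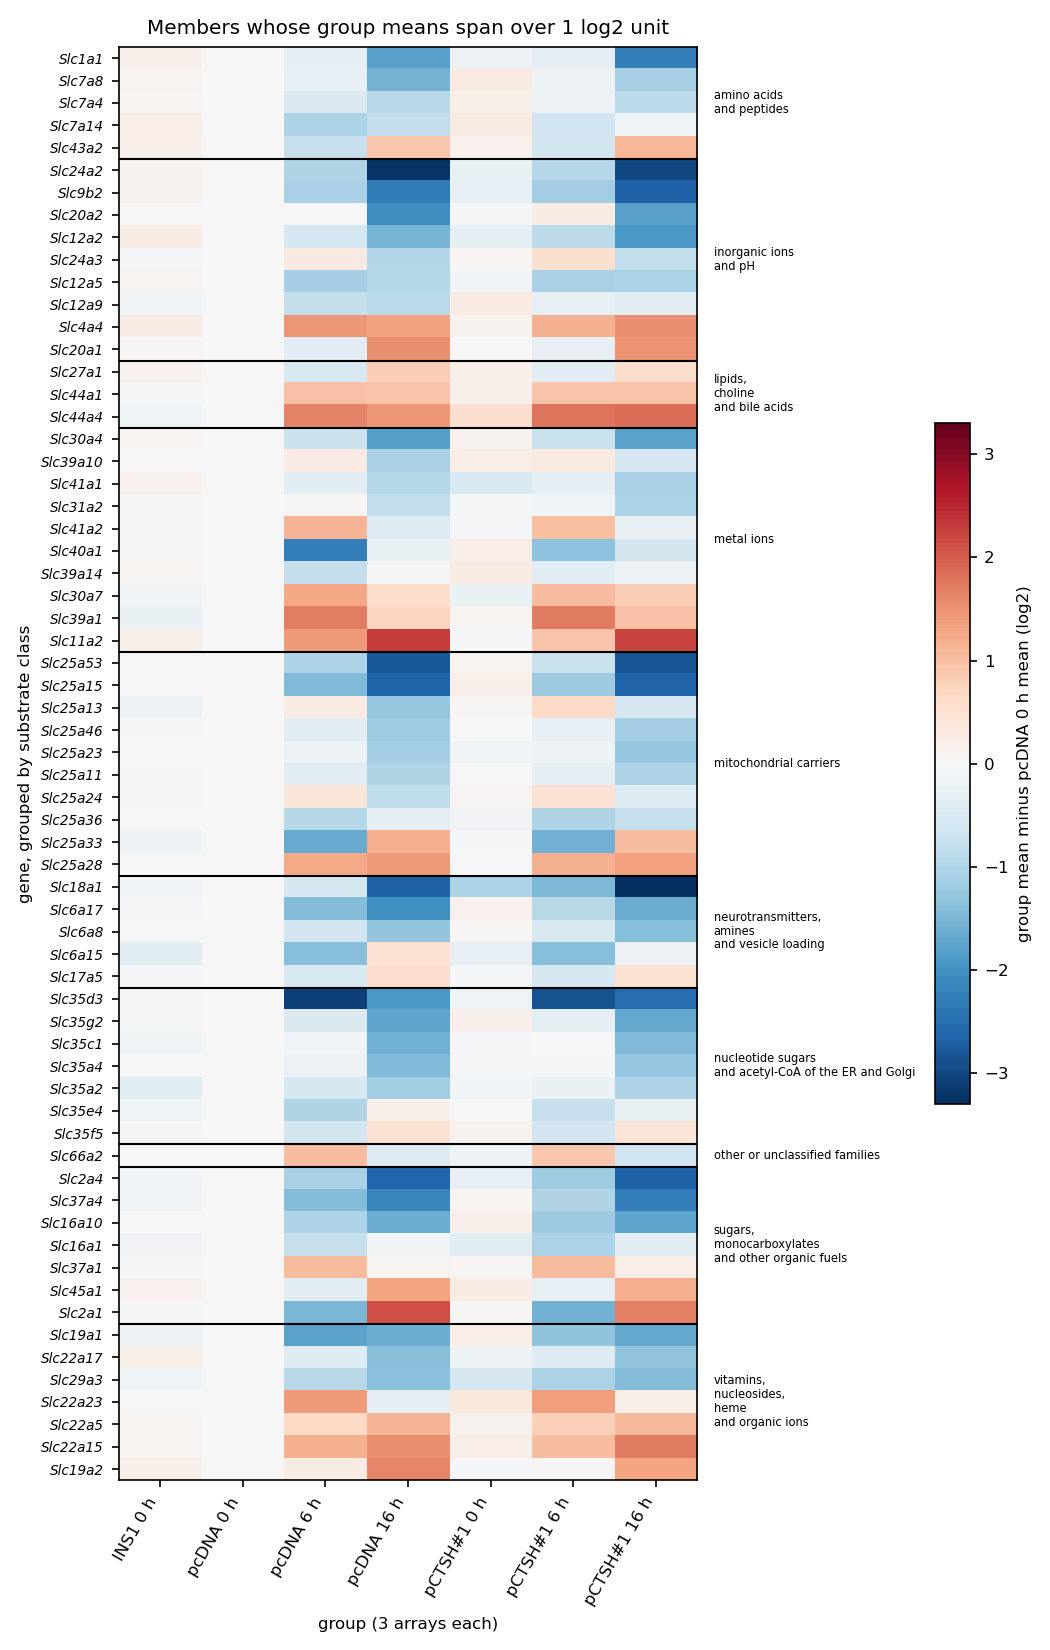
Mean log2 level in each of the 7 groups (columns, 3 arrays each) minus the mean in pcDNA at 0 h, for the 64 genes (rows) whose group means span more than 1 log2 unit, grouped by substrate class; red is higher and blue lower. The 3 columns at 0 h differ little in most rows, Slc18a1 in pCTSH#1 being an exception, and the columns of both lines at a given time resemble each other.

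Promoter sequences from RefSeq (assembly GRCr8) are given for 3 genes on which the time course turns. Slc2a1 encodes the glucose transporter GLUT1 and Slc25a33 a carrier of pyrimidine nucleotides in the inner mitochondrial membrane; both fell at 6 h and rose above their starting level at 16 h. Slc35d3, a member of the nucleotide sugar transporter family known from platelet dense granules, had the largest fall of the 129 genes at 6 h. The stretches run 5′ to 3′ from 250 bases before to 50 bases after the annotated start, at chr5:138002272-138002571 (plus strand) for Slc2a1, chr5:165502924-165503223 (minus strand) for Slc25a33 and chr1:16392731-16393030 (minus strand) for Slc35d3. Capitals mark every match, on either strand, to ACGTG (the core of a hypoxia response element), CACGTG (E-box), TGACGTCA (cAMP response element) or GGGCGG (GC box).
Slc2a1: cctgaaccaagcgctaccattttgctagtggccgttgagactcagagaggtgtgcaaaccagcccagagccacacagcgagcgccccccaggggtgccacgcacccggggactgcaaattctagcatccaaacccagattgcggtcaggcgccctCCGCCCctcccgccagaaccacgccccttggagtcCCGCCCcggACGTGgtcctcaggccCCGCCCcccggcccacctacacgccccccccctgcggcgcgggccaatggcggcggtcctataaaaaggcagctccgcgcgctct
Slc25a33: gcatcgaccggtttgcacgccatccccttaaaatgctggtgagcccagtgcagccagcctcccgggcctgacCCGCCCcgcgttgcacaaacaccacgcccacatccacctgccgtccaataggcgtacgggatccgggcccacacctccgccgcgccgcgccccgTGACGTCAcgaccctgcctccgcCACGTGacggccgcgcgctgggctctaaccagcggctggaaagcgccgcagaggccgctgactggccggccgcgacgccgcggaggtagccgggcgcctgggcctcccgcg
Slc35d3: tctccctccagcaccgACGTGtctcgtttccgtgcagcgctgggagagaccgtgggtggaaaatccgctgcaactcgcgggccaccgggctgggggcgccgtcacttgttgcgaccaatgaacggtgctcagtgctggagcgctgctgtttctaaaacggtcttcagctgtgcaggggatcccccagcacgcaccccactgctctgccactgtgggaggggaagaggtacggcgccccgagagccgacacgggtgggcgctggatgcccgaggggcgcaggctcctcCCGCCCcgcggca

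In these windows Slc2a1 holds ACGTG at position -51 from the start and 3 GC boxes. Slc25a33 holds an E-box at -61, inside which the ACGTG matches lie, and a cAMP response element at -84. Slc35d3 holds ACGTG at -234 and a GC box 38 bases into the transcript. Promoters were matched for 105 of the 129 genes, with 110 start sites. The E-box was in 12.7% of these and in 6.42% of all 33469 promoters of the table, ACGTG in 29.1% and 19.3%, and the GC box in 75.5% and 33.1%. The cAMP response element was in 2.73% and 1.83%; its 3 carriers were Slc25a33, Slc25a25 and Slc45a1. Of elements linked to cytokine signalling, TTCNNNGAA (GAS) was in 2.73% against 8.87%, the ISRE motif in 0.909% against 3.92%, and the NF-kB motif in 0.909% against 1.53%. TGATGNAA (C/EBP-ATF) was in 1.82% against 3.98%. The GAS, ISRE, NF-kB and C/EBP-ATF shares of the solute carriers rest on 3, 1, 1 and 2 promoters. The 129 genes had passed a level limit, and the promoters they are set against were not limited by level. What part this has in the differences was not tested, and nothing particular to solute carriers is read from them. A match describes the letters of the window and is not a binding site.

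At 6 h of cytokines more solute carriers were lower than higher. In pcDNA 19 genes rose and 66 fell by limma at an adjusted p below 0.05, together 65.9% of the 129, where 30.6% of all 31042 probe sets and 54.4% of the 7858 genes with a mean of 6 or more were called (19.2% higher and 35.2% lower). The median difference was -0.34 (log2), against -0.13 for those 7858 genes. The zinc importer Slc39a1 rose most and the iron exporter Slc40a1 was second among the falls, after Slc35d3. At 16 h 30 genes rose and 70 fell, or 77.5%, against 46.4% of all probe sets and 76.3% of the 7858 genes (35.0% higher and 41.3% lower), with a median of -0.38 against -0.07. The share at 16 h was thus close to that of other genes of this level, and nothing particular to solute carriers is read from it. Counts of substrate classes below are to be read beside these shares. The classes were set by family number, so a class name does not cover every gene in it.

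**Figure D2:**
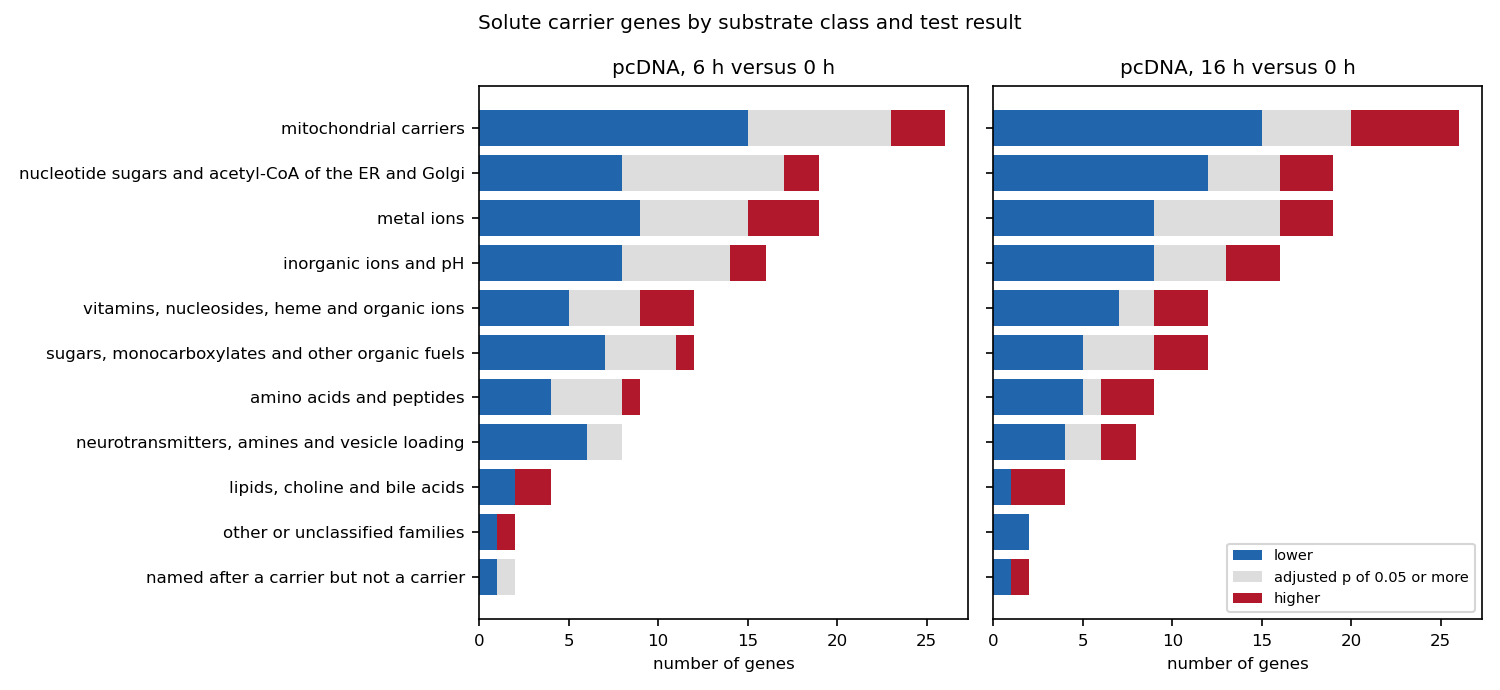
Number of genes (horizontal axis) that were higher (red), lower (blue) or not called (grey) in pcDNA at 6 h and 16 h against 0 h, by substrate class. Mitochondrial carriers are the largest class, with 15 of 26 lower at 6 h and 15 lower at 16 h, which are not all the same genes, and the class of lipid and choline carriers is small but had 3 of 4 higher at 16 h.

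Of 3 iron carriers, Slc11a2 and Slc25a28 rose at both times in pcDNA and Slc40a1 fell at 6 h. Slc11a2 (DMT1), which takes ferrous iron into the cytosol from outside and from endosomes, read 8.63, 8.60 and 8.45 on the pcDNA arrays at 0 h, 9.92, 9.89 and 10.10 at 6 h, and 10.88, 10.76 and 10.99 at 16 h. No arrays of different times overlapped, and the level was higher at each later time. It rose by 1.41 ± 0.10 (standard error of the model) at 6 h and by 2.32 ± 0.10, 4.98-fold, at 16 h (limma, adjusted p = 3.2e-13), the largest rise of the list at that time. A second probe set rose less, by 0.75 at 16 h, and the mean of all its probe sets by 1.53. Slc25a28 (mitoferrin-2), which carries iron into mitochondria, read 9.13, 9.07 and 9.29 at 0 h, 10.41, 10.39 and 10.43 at 6 h and 10.62, 10.41 and 10.66 at 16 h. It rose by 1.25 ± 0.09 at 6 h (limma, adjusted p = 1.55e-09) and stayed up (1.40 ± 0.09 at 16 h), so that the arrays at 6 and 16 h overlapped.

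Slc40a1 encodes ferroportin, the iron exporter of the plasma membrane. Its probe set read 7.52, 7.61 and 7.58 in pcDNA at 0 h, 5.51, 5.24 and 5.13 at 6 h, and 7.59, 7.30 and 7.05 at 16 h. The level fell at 6 h by 2.28 ± 0.19 (limma, adjusted p = 6.04e-09) and was near its start again at 16 h, where the difference of -0.25 ± 0.19 did not pass (adjusted p = 0.297). The other probe set of Slc40a1 above background disagreed at the late time: it fell by 2.59 at 6 h and was still 2.24 lower at 16 h (adjusted p = 1.02e-10), so the return was seen by only 1 of them. In pCTSH#1 the first probe set read 7.93, 7.69 and 7.74 at 0 h, 6.35, 5.88 and 6.40 at 6 h and 7.20, 7.25 and 6.42 at 16 h, and fell at both times (by 1.58 and 0.83). The transferrin receptor gene Tfrc, through which cells take up transferrin-bound iron, fell at both times, with differences of -0.27 at 6 h and -0.22 at 16 h (limma, adjusted p = 0.0142 and 0.0287). Slc39a14, which also imports iron, is given with the zinc carriers.

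Zinc carriers moved in both directions. Slc30a8, the zinc transporter of insulin granules, had no probe set of its own and was not analysed here. Slc39a1 (ZIP1), which brings zinc into the cytosol, read 8.35, 8.44 and 8.41 at 0 h, 10.04, 10.06 and 10.20 at 6 h and 9.09, 9.10 and 9.12 at 16 h in pcDNA. It rose by 1.70 ± 0.12 at 6 h (limma, adjusted p = 4.65e-10) and was partly down again at 16 h, still 0.70 ± 0.12 above the start. Slc30a7 (ZnT7), which loads zinc into the Golgi, followed the same course, with rises of 1.28 ± 0.11 and 0.57 ± 0.11. Slc30a4 (ZnT4), a vesicular zinc transporter, went the other way: it read 9.67, 9.70 and 9.46 at 0 h, 8.89, 8.88 and 8.93 at 6 h and 7.59, 7.68 and 8.06 at 16 h, a fall of 1.83 ± 0.10 (limma, adjusted p = 8.04e-12). In pcDNA the importers Slc39a10 and Slc39a6 fell at 16 h only (by 1.06 and 0.85), and Slc39a14 at 6 h only (by 0.78). For each, the difference between 6 and 16 h was itself called in pcDNA. The 16 h response of Slc39a14 was lower in pCTSH#1 than in pcDNA by an estimated 0.45 ± 0.13, which did not pass (limma, adjusted p = 0.257). Other probe sets of Slc39a6, also above background, gave -0.19 and -0.37 at 16 h and were not called (limma, adjusted p = 0.321 and 0.0642). For the copper carrier Slc31a2 the fall at 16 h was 0.82. Of the 19 metal ion carriers 4 rose and 9 fell at 6 h, and 3 rose and 9 fell at 16 h.

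A list of 28 partner genes covered metal handling, chaperones and scaffolds of carriers, and the sodium pump. It also held mitochondrial and synaptic vesicle carriers without an Slc symbol. Of the list 21 were measured. Over all these roles 2 rose and 7 fell at 6 h in pcDNA, and 5 rose and 11 fell at 16 h. Of all 31042 probe sets 12.1% rose and 18.5% fell at 6 h, and 21.3% and 25.1% at 16 h. Mtf1, the metal-responsive transcription factor, rose by 1.02 at 6 h and 0.72 at 16 h. Mt3, a metallothionein that binds zinc and copper, had differences of -0.38 at 6 h and -2.95 at 16 h (limma, adjusted p = 1.17e-13). Mt1 rose by 1.34 at 16 h from a level at background. Among the other partners Mpc2, a subunit of the mitochondrial pyruvate carrier, fell by 1.56 at 16 h, Atp1b3, a sodium pump subunit, by 1.21, and the mitochondrial carrier homolog Mtch1 by 1.11.

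Of the glucose transporters Slc2a1 and Slc2a4, both fell at 6 h, and at 16 h Slc2a1 was above and Slc2a4 below its start. Slc2a1 read 7.71, 7.84 and 7.52 in pcDNA at 0 h, 6.42, 5.91 and 6.18 at 6 h and 9.86, 9.90 and 9.69 at 16 h. All arrays at 6 h were below, and all arrays at 16 h above, every array at 0 h. The fall at 6 h was 1.52 ± 0.12 (limma, adjusted p = 2.49e-09) and the rise at 16 h 2.12 ± 0.12 (adjusted p = 6.13e-12), which makes the step from 6 to 16 h the largest of all 129 genes, 3.64 ± 0.12 or 12.5-fold. Slc2a4 (GLUT4), the transporter that insulin mobilises in muscle and fat, fell throughout. It read 8.53, 8.44 and 8.55 at 0 h, 7.41, 7.59 and 7.30 at 6 h and 5.96, 5.99 and 5.74 at 16 h, a fall of 2.61 ± 0.11 (limma, adjusted p = 9.78e-14). Its other probe set was not above background on all arrays and is not used here. Of the other members of the family, Slc2a6 rose by 0.33 at 16 h (limma, adjusted p = 0.0413) and Slc2a8 fell by 0.41 (adjusted p = 0.000823), with 6 h differences of 0.21 and -0.13 that did not pass.

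The other carriers of sugars and fuels varied in time course. Slc37a4, the glucose-6-phosphate transporter of the endoplasmic reticulum, read 9.67, 9.54 and 9.84 at 0 h, 8.29, 8.23 and 8.26 at 6 h and 7.57, 7.47 and 7.56 at 16 h, and fell by 1.42 ± 0.08 and 2.15 ± 0.08. Its relative Slc37a1 rose by 1.04 ± 0.10 at 6 h and differed by 0.09 at 16 h, where it did not pass. Slc45a1, a proton-coupled sugar transporter, had the time course of Slc2a1 at a smaller size, with -0.36 at 6 h and 1.30 at 16 h. Slc16a1 (MCT1), the lactate and pyruvate transporter that normal beta cells keep silent, was measured in this tumour line at 7.61, 7.67 and 7.37 at 0 h, fell by 0.75 ± 0.22 at 6 h (limma, adjusted p = 0.0113) and differed by -0.10 at 16 h. Slc16a10, which carries aromatic amino acids and thyroid hormone, fell by 1.01 and 1.65. Of 12 genes of this class 1 rose and 7 fell at 6 h, and 3 rose and 5 fell at 16 h.

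**Figure D3:**
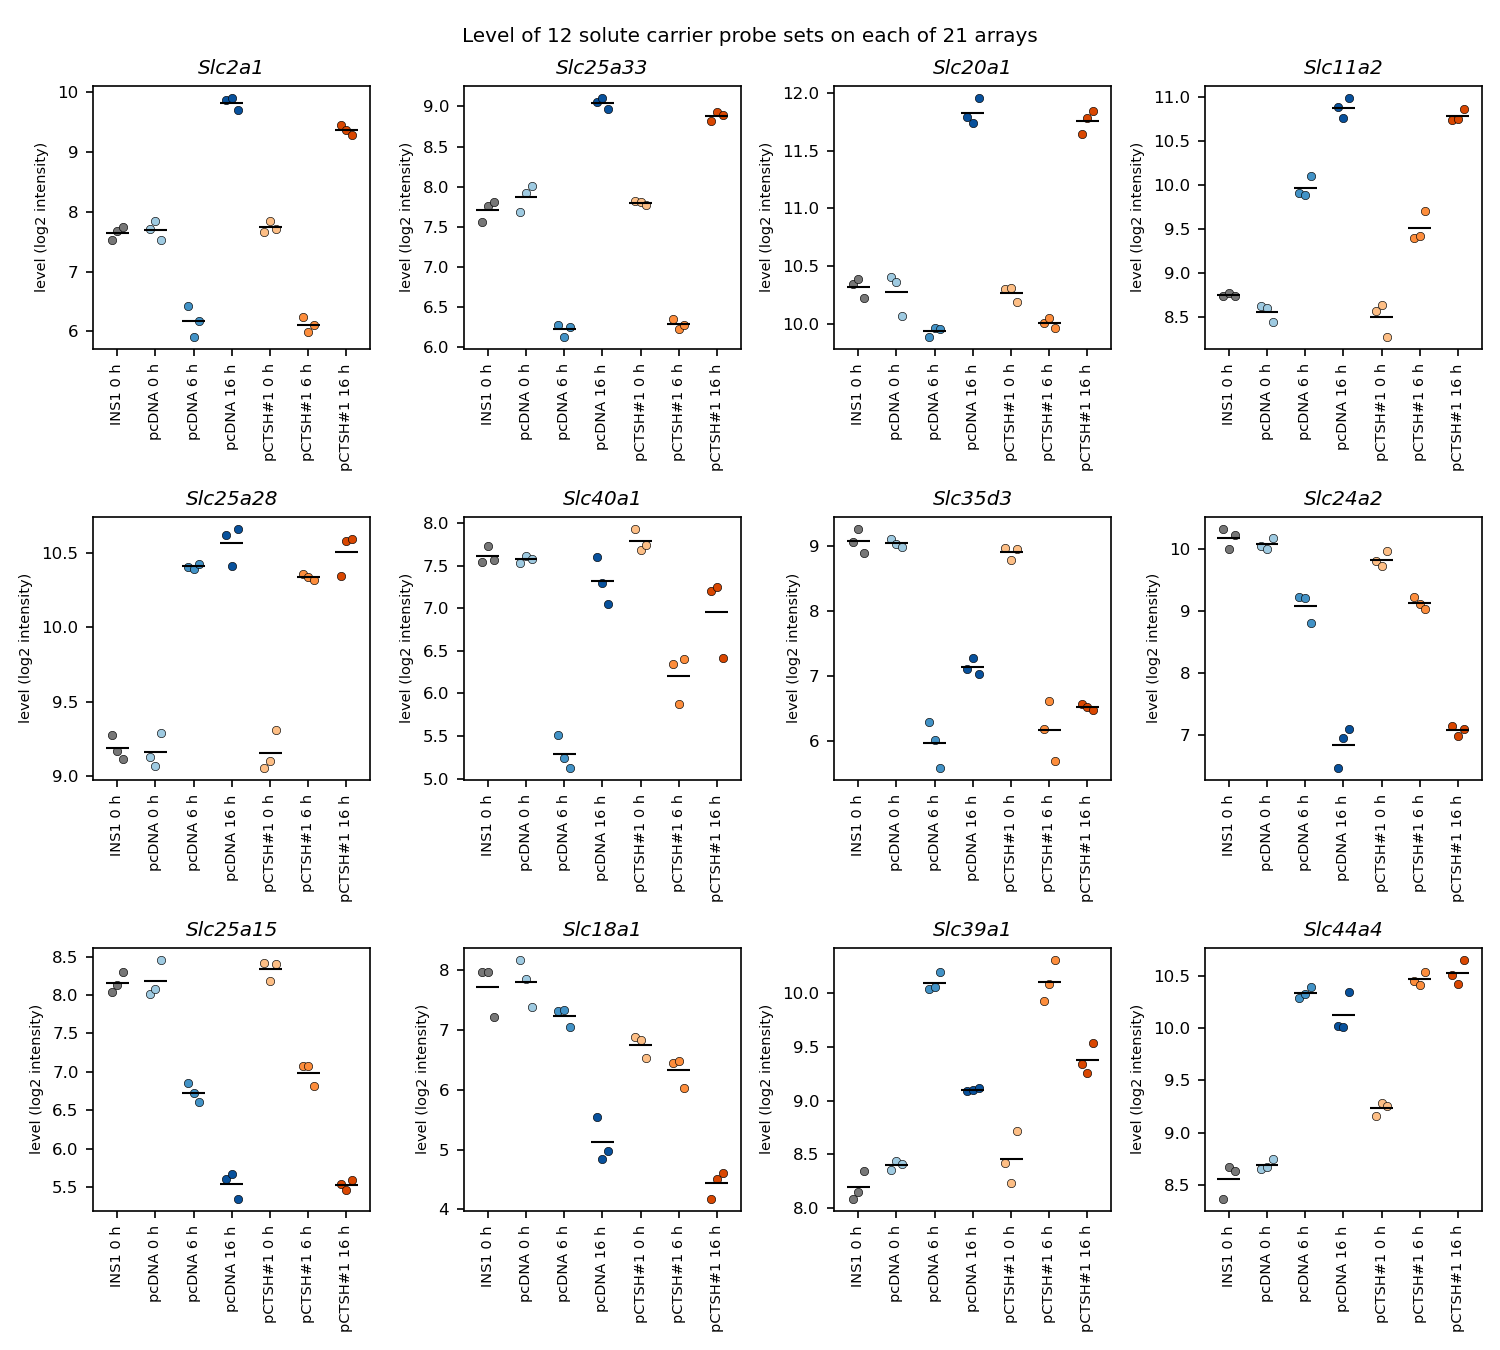
Log2 level (vertical axis) of 12 genes on each of the 21 arrays, in 7 groups (horizontal axis); each point is an array and each bar the mean of 3. Slc2a1 and Slc25a33 are lowest at 6 h and highest at 16 h in both lines, Slc24a2 and Slc25a15 fall step by step, and Slc18a1 and Slc44a4 already differ between the lines at 0 h.

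Mitochondrial carriers, the largest class with 26 genes, had 3 higher and 15 lower at 6 h and 6 higher and 15 lower at 16 h in pcDNA (medians -0.32 and -0.37). Slc25a33 read 7.68, 7.92 and 8.00 at 0 h, 6.27, 6.12 and 6.25 at 6 h and 9.06, 9.11 and 8.96 at 16 h. It fell by 1.65 ± 0.09 (limma, adjusted p = 1.06e-11) and then stood 1.18 ± 0.09 above the start, a step of 2.83, or 7.10-fold, between 6 and 16 h. Slc25a15, the ornithine carrier that links the cytosol to mitochondrial urea cycle enzymes, read 8.01, 8.07 and 8.46 at 0 h, 6.85, 6.73 and 6.60 at 6 h and 5.60, 5.67 and 5.35 at 16 h, a fall of 2.64 ± 0.12 at 16 h (limma, adjusted p = 4.36e-13). No arrays of different times overlapped for either gene. Slc25a53, a carrier of unknown substrate, fell by 1.03 and 2.81.

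The citrate carrier Slc25a1 was 0.81 ± 0.09 lower at 6 h and 0.82 ± 0.09 lower at 16 h, the dicarboxylate carrier Slc25a10 0.61 and 0.76, and the oxoglutarate carrier Slc25a11 0.34 and 1.00. The aspartate and glutamate carriers of the malate shuttle parted: Slc25a13 (citrin) fell by 1.28 ± 0.12 at 16 h while Slc25a12 (aralar) rose by 0.22. Slc25a24, a calcium-regulated carrier of ATP-Mg and phosphate, rose by 0.40 at 6 h and fell by 0.83 at 16 h, and its relative Slc25a23 fell by 1.12 at 16 h. Another probe set of Slc25a23, also above background, gave 0.22 at 16 h and was not called (limma, adjusted p = 0.372). The mitochondrial glutamate carrier Slc25a22 rose by 0.51 and 0.46.

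Slc25a4 and Slc25a3 had small differences. Slc25a4 (ANT1), which exchanges ADP and ATP across the inner membrane, ranged from 12.49 to 12.69 over the 21 arrays, with differences of -0.04 ± 0.06 at 6 h and -0.01 ± 0.06 at 16 h in pcDNA. The phosphate carrier Slc25a3 fell by 0.18 ± 0.07 at 16 h (limma, adjusted p = 0.0281).

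Among carriers of inorganic ions Slc24a2 had the largest fall of the list at 16 h. It encodes NCKX2, a plasma membrane exchanger that removes calcium in exchange for sodium. It read 10.04, 9.99 and 10.18 at 0 h, 9.23, 9.21 and 8.81 at 6 h and 6.47, 6.95 and 7.10 at 16 h in pcDNA. The groups did not overlap, the fall at 16 h was 3.23 ± 0.14, or 9.39-fold (limma, adjusted p = 1.96e-13), and a second probe set gave 3.49. Slc9b2, a sodium and proton exchanger, fell by 2.31 ± 0.16, and the chloride importer Slc12a2 (NKCC1) by 1.52 ± 0.12. The chloride exporter Slc12a5 (KCC2) fell by 1.12 at 6 h and 0.94 at 16 h. Slc4a4, a sodium bicarbonate cotransporter, read 8.39, 8.21 and 8.73 at 0 h, 9.86, 9.85 and 10.01 at 6 h and 9.72, 9.87 and 9.73 at 16 h, and rose by 1.46 ± 0.13 and 1.33 ± 0.13.

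The 2 sodium phosphate cotransporters of family 20 moved apart at 16 h. Slc20a1 (PiT-1) read 10.41, 10.37 and 10.07 at 0 h, 9.89, 9.97 and 9.96 at 6 h and 11.79, 11.73 and 11.95 at 16 h, a rise of 1.54 ± 0.09 (limma, adjusted p = 1.9e-11). Slc20a2 (PiT-2) read 8.03, 7.89 and 7.91 at 0 h, 8.04, 7.99 and 7.87 at 6 h and 5.64, 5.83 and 6.22 at 16 h, a fall of 2.05 ± 0.12 (adjusted p = 1.52e-11). For Slc20a2 the arrays at 0 and 6 h overlapped, and those at 16 h lay below them all. Its mean over all probe sets gave a smaller step between 6 and 16 h (-1.36 against -2.07).

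The class of neurotransmitter, amine and vesicle carriers was set by family number and also holds carriers of amino acids, creatine and sialic acid. Of its 8 genes 6 were lower at 6 h in pcDNA and none higher. Among the 7858 genes with a mean of 6 or more 35.2% were lower and 19.2% higher. Slc18a1 (VMAT1), which loads monoamines into secretory granules, read 8.17, 7.86 and 7.38 at 0 h, 7.32, 7.33 and 7.05 at 6 h and 5.55, 4.84 and 4.98 at 16 h in pcDNA. The difference of -0.57 ± 0.22 at 6 h did not pass (limma, adjusted p = 0.0616), and the fall at 16 h was 2.68 ± 0.22 (adjusted p = 3.01e-09). In pCTSH#1 it read 4.18, 4.51 and 4.62 at 16 h, the only group mean of the list less than 0.5 above background, so its value there lies close to the floor of the arrays. The neutral amino acid carrier Slc6a15 fell by 1.41 at 6 h and stood 0.47 above the start at 16 h. Slc17a5 (sialin), which exports sialic acid from lysosomes, fell by 0.53 at 6 h and was 0.54 above the start at 16 h. The polyamine carrier Slc18b1 fell by 0.35 and 0.79.

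Of the 9 amino acid carriers that remained after the exclusions, 1 rose and 4 fell at 6 h, and 3 rose and 5 fell at 16 h. Slc1a1, a glutamate and cysteine importer, read 7.92, 8.02 and 7.97 at 0 h, 7.74, 7.65 and 7.61 at 6 h and 5.57, 6.62 and 6.33 at 16 h in pcDNA, a fall of 1.80 ± 0.17 at 16 h. Its other probe set fell by only 0.35. The neutral amino acid exchanger Slc7a8 fell by 1.55 at 16 h and the cationic family member Slc7a14 by 1.03 at 6 h and 0.80 at 16 h, while Slc7a6 rose by 0.78 and 0.67. Slc7a4 fell by 0.47 and 0.93. Among the genes left out by name, Slc3a2 (2.07), Slc7a11 (1.99) and Slc7a5 (1.42) rose at 16 h, as did Slc7a1 (0.87) and Slc1a4 (0.73), and the beta-cell glucose transporter Slc2a2 fell by 0.25.

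The class of nucleotide sugar and acetyl-CoA carriers of the endoplasmic reticulum and Golgi was also set by family number. Of its 19 genes 3 were higher and 12 lower at 16 h in pcDNA, and 2 and 8 at 6 h. Among the 7858 genes with a mean of 6 or more 35.0% were higher and 41.3% lower at 16 h. At 6 h these shares were 19.2% and 35.2%. Slc35d3 read 9.10, 9.03 and 8.99 at 0 h, 6.29, 6.02 and 5.60 at 6 h and 7.11, 7.28 and 7.03 at 16 h in pcDNA. The fall of 3.07 ± 0.18, or 8.40-fold, at 6 h (limma, adjusted p = 3.18e-11) was partly undone at 16 h, when it was 1.90 ± 0.18. The GDP-fucose carrier Slc35c1 and the family members Slc35g2 and Slc35a4 fell late, by 1.59, 1.74 and 1.45 at 16 h. The UDP-galactose carrier Slc35a2 fell by 1.14. Slc35b3, which carries the sulfate donor PAPS, rose by 0.49 at 6 h and 0.84 at 16 h. Slc35b1, of the highest level in this class, fell by 0.36 and 0.45. Its other probe set gave -0.20 and -0.16 and was not called.

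Carriers of lipids, choline, vitamins and organic ions held several rises. Slc44a4, a choline and thiamine pyrophosphate transporter, read 8.66, 8.67 and 8.75 at 0 h, 10.28, 10.32 and 10.39 at 6 h and 10.02, 10.01 and 10.35 at 16 h in pcDNA, and rose by 1.64 ± 0.10 and 1.43 ± 0.10. The choline transporter Slc44a1 rose by 0.96 and 0.94. Another probe set of Slc44a1, also above background, rose by 0.55 at 6 h, gave 0.08 at 16 h and was not called there (limma, adjusted p = 0.681). A further probe set of the gene rose by 1.01 and 0.97. The fatty acid carrier Slc27a4 fell by 0.58 at 6 h and 0.43 at 16 h, the latter lost without array 2 of pcDNA at 16 h (limma, adjusted p = 0.0576). The 2 vitamin carriers of family 19 moved apart: the folate carrier Slc19a1 fell by 1.76 ± 0.10 at 6 h and 1.63 ± 0.10 at 16 h, and the thiamine carrier Slc19a2 rose by 1.62 ± 0.09 at 16 h (limma, adjusted p = 7.82e-12). Slc22a15 and the carnitine carrier Slc22a5 rose at both times (1.18 and 1.53, and 0.67 and 1.13). Slc22a23, an orphan of the same family, rose by 1.41 at 6 h and was 0.33 below the start at 16 h. Slc22a17, a receptor for lipocalin-2, fell by 0.43 and 1.42. Of the 2 genes whose symbols only derive from a carrier's, Slc7a6os rose by 0.39 at 16 h and Slc4a1ap fell by 0.26 and 0.29; the latter call at 16 h was lost with centred arrays or cyclic loess (limma, adjusted p = 0.0829 and 0.0555).

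Between 6 and 16 h 34 genes rose and 54 fell in pcDNA (68.2%, against 42.2% of all probe sets and 71.1% of the 7858 genes, 35.2% higher and 36.0% lower). The largest steps up were those of Slc2a1 and Slc25a33, followed by Slc40a1 (2.02), Slc20a1 (1.89) and Slc6a15 (1.88). The largest steps down were those of Slc24a2 (-2.24), Slc18a1 (-2.11), Slc20a2 (-2.07), Slc25a53 (-1.78) and Slc22a23 (-1.74).

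In pCTSH#1 most of the called genes were called in the same direction as in pcDNA. At 6 h 20 genes rose and 60 fell, or 62.0%, against 26.8% of all probe sets and 48.5% of the 7858 genes (17.5% higher and 31.0% lower); with cyclic loess scaling of the arrays the split was 24 and 43. At 16 h 31 rose and 74 fell, or 81.4%, against 46.4% and 76.2% (34.4% higher and 41.8% lower). Between 6 and 16 h 31 rose and 54 fell, or 65.9%, against 41.3% and 70.0% (33.8% higher and 36.2% lower). The responses of the lines share no arrays. At 6 h 75 genes were called in the same direction in both, which is 88.2% of the 85 called in pcDNA and 93.8% of the 80 called in pCTSH#1, and at 16 h 95 were, 95.0% of 100 and 90.5% of 105. None was called in opposite directions. Across the 129 genes, which share arrays and are not independent, the differences of the lines had a Pearson correlation of 0.972 at 6 h and 0.977 at 16 h. Shared calls and correlations were not computed for other genes, so nothing particular to solute carriers is read from them.

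In pCTSH#1 Slc2a1 read 7.66, 7.84 and 7.71 at 0 h, 6.24, 6.00 and 6.11 at 6 h and 9.44, 9.36 and 9.27 at 16 h, and Slc25a33 7.82, 7.81 and 7.77, 6.35, 6.22 and 6.27, and 8.82, 8.94 and 8.90. Both thus fell and rose as in pcDNA, by 1.62 and 1.62 for Slc2a1 and by 1.52 and 1.08 for Slc25a33. Slc11a2 rose by 1.01 and 2.28, Slc39a1 by 1.65 and 0.92, Slc44a4 by 1.23 and 1.29 and Slc20a1 by 1.49 at 16 h. The falls of Slc35d3 were 2.73 and 2.37, that of Slc24a2 at 16 h was 2.75, that of Slc25a15 was 2.80 and that of Slc25a53 was 2.93.

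**Figure D4:**
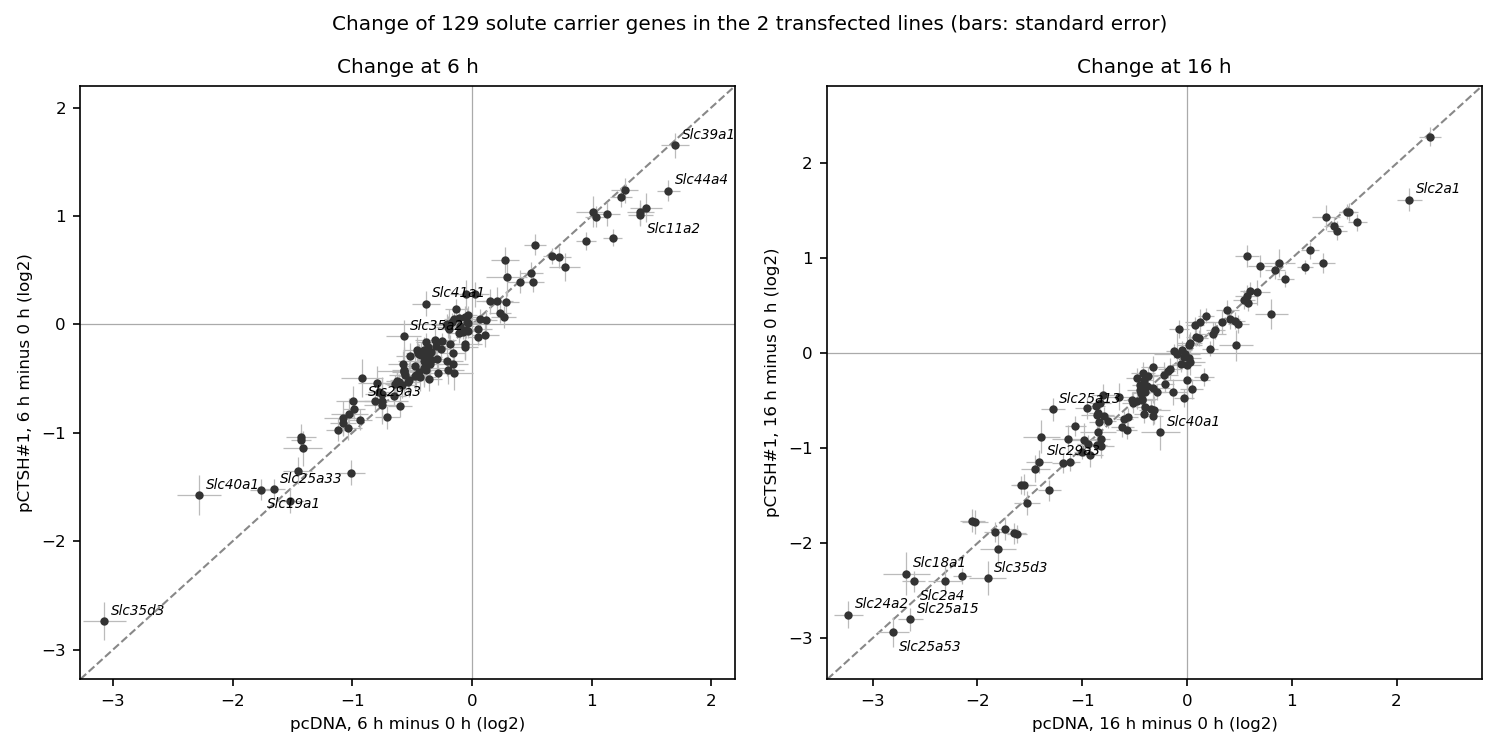
Difference from 0 h (log2) in pCTSH#1 (vertical axis) against that in pcDNA (horizontal axis) for the 129 genes at 6 h and 16 h; bars are standard errors of the model and the dashed line marks equal differences. Most points lie near the dashed line, and the departures of the labelled genes did not pass the test of the difference.

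The test of the difference between the responses called no member at either time. At 6 h 10 genes, and at 16 h 14 genes, of the 129 had an unadjusted p below 0.05 by limma. Such a p was found for 474 and 680 of the 7858 genes with a mean of 6 or more. It was found for 1827 and 2471 of all 31042 probe sets. The adjusted test called 0.103% and 0.213% of all probe sets. The estimates ran from -0.41 to 0.70 at 6 h and from -0.58 to 0.69 at 16 h. The most supported was Slc25a13 at 16 h, for which the fall was smaller in pCTSH#1 by 0.69 ± 0.17 (limma, adjusted p = 0.118). At 6 h it was Slc41a1, a magnesium transporter, with a difference of 0.58 ± 0.16 (limma, adjusted p = 0.402). A p that misses the threshold does not show equal responses.

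Compared directly, the lines differed in few solute carriers. At 0 h 1 gene was higher and 2 lower in pCTSH#1 than in pcDNA (2.33%, against 1.87% of all probe sets and 3.40% of the 7858 genes, 2.24% higher and 1.16% lower); with the replicate number as a block, or with arrays centred on their medians, the split was 2 and 2. Slc44a4 read 9.16, 9.28 and 9.26 in pCTSH#1, above all arrays of pcDNA and of untransfected cells (8.37, 8.67 and 8.63). It was 0.54 ± 0.10 higher than in pcDNA (limma, adjusted p = 0.00387) and 0.67 ± 0.10 higher than in INS1 (adjusted p = 0.000325), and both calls held without any single array (highest adjusted p = 0.0254 and 0.00306). Slc41a1 read 6.10, 5.89 and 6.14 in pCTSH#1, against 6.40, 6.57 and 6.65 in pcDNA and 6.71, 6.61 and 6.76 in INS1. It was 0.65 ± 0.12 lower than in INS1 (limma, adjusted p = 0.00237), a call that also held (highest 0.0209), and 0.49 ± 0.12 lower than in pcDNA (adjusted p = 0.0267). The latter was lost without array 2 or 3 of pcDNA (0.102 and 0.129) and without array 1 or 2 of pCTSH#1 (0.0652 and 0.157).

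Slc18a1 read 6.89, 6.84 and 6.54 in pCTSH#1 at 0 h, against 8.17, 7.86 and 7.38 in pcDNA and 7.96, 7.97 and 7.22 in INS1, without overlap. The difference from pcDNA was -1.05 ± 0.22 (limma, adjusted p = 0.0132) and was lost without array 1 or 2 of pcDNA (0.103 and 0.0557) and without array 3 of pCTSH#1 (0.0746). The difference from INS1 was -0.97 ± 0.22 (adjusted p = 0.0199) and was lost without array 1 or 2 of INS1 (0.105 and 0.112) and without array 2 or 3 of pCTSH#1 (0.0526 and 0.0991). The direction was the same in all of these.

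Between untransfected cells and pcDNA none of the 129 genes was called (0.00966% of all probe sets were called), with 2 genes at an unadjusted p below 0.05 by limma. Such a p was found for 253 of the 7858 genes with a mean of 6 or more. Between pCTSH#1 and untransfected cells 2 were higher and 3 lower (3.88%, against 2.57% of all probe sets and 4.71% of the 7858 genes, 3.28% higher and 1.43% lower). Beside the genes above these were Slc19a1 and Slc12a2. Slc19a1 was higher by 0.40 (limma, adjusted p = 0.0233), lost without array 1 or 2 of INS1 (0.112 and 0.0543) and array 2 or 3 of pCTSH#1 (0.0966 and 0.0805). Slc12a2 was lower by 0.56 (adjusted p = 0.0161), lost without array 3 of INS1 (0.087) or array 3 of pCTSH#1 (0.0852).

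At 6 h 8 genes were higher and 2 lower in pCTSH#1 than in pcDNA (7.75%, against 2.86% and 5.60%, the latter 3.68% higher and 1.92% lower), and at 16 h 7 were higher and 4 lower (8.53%, against 3.80% and 7.29%, the latter 4.78% higher and 2.51% lower). Calls at 6 h that held without any single array were those of Slc40a1 (0.92 ± 0.19), the amino acid carrier Slc38a4 (0.47 ± 0.09) and Slc37a4 (0.43 ± 0.08), with highest adjusted p of 0.0464, 0.0328 and 0.035. For Slc40a1 the arrays read 5.51, 5.24 and 5.13 in pcDNA and 6.35, 5.88 and 6.40 in pCTSH#1, without overlap. At 16 h such calls were those of Slc25a13 (0.73 ± 0.12), Slc7a14 (0.66 ± 0.11) and Slc39a10 (0.52 ± 0.10), with highest adjusted p of 0.00826, 0.0102 and 0.0397. Slc25a13 read 6.03, 6.22 and 6.61 in pcDNA and 6.92, 6.93 and 7.19 in pCTSH#1 at 16 h. These 3 calls at 16 h were lost when the spread was estimated from the 6 arrays compared alone (adjusted p = 0.109, 0.063 and 0.134). Every other call at these times was lost without at least 1 array, as the adjusted p in brackets show.

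At 6 h these were 7 genes. The Slc6a17 call (0.52, limma, adjusted p = 0.0231) was lost without array 1 or 2 or 3 of pcDNA (0.069, 0.0719 and 0.0878) or array 1 or 2 or 3 of pCTSH#1 (0.0616, 0.0772 and 0.0919). It was also lost with the mean of all probe sets of the gene (0.23, limma, adjusted p = 0.248). The Slc19a1 call (0.45, limma, adjusted p = 0.0109) was lost without array 1 of pcDNA (0.0853) or array 1 of pCTSH#1 (0.0832). The Slc39a14 call (0.43, limma, adjusted p = 0.0125) was lost without array 2 or 3 of pcDNA (0.0524 and 0.0598) or array 2 or 3 of pCTSH#1 (0.084 and 0.0514). The Slc2a8 call (0.41, limma, adjusted p = 0.0156) was lost without array 1 or 3 of pcDNA (0.0723 and 0.0734) or array 1 or 3 of pCTSH#1 (0.0724 and 0.0612). The Slc25a20 call (0.36, limma, adjusted p = 0.018) was lost without array 1 or 2 of pcDNA (0.1 and 0.0588) or array 1 or 2 of pCTSH#1 (0.0793 and 0.0715). The Slc11a2 call (-0.45, limma, adjusted p = 0.0177) was lost without array 1 or 2 of pCTSH#1 (0.106 and 0.103) or array 3 of pcDNA (0.107). It was also lost with the mean of all probe sets of the gene (-0.17, limma, adjusted p = 0.402). The Slc18a1 call (-0.91, limma, adjusted p = 0.0274) was lost without array 1 or 2 of pcDNA (0.108 and 0.11) or array 1 or 2 or 3 of pCTSH#1 (0.0594, 0.0554 and 0.148).

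At 16 h these were 8 genes. The Slc22a23 call (0.52, limma, adjusted p = 0.0124) was lost without array 1 of pCTSH#1 (0.062) or array 2 of pcDNA (0.0798). It was also lost with the mean of all probe sets of the gene (0.32, limma, adjusted p = 0.0602). The Slc7a8 call (0.46, limma, adjusted p = 0.019) was lost without array 1 or 2 of pCTSH#1 (0.0726 and 0.0938) or array 2 of pcDNA (0.0944). The Slc44a4 call (0.40, limma, adjusted p = 0.0244) was lost without array 1 or 2 of pcDNA (0.115 and 0.115) or array 1 or 3 of pCTSH#1 (0.0541 and 0.105). The Slc25a24 call (0.39, limma, adjusted p = 0.0395) was lost without array 1 or 2 of pcDNA (0.187 and 0.163) or array 2 or 3 of pCTSH#1 (0.0993 and 0.135). The Slc35e4 call (-0.40, limma, adjusted p = 0.0185) was lost without array 1 or 3 of pcDNA (0.0544 and 0.0608) or array 1 of pCTSH#1 (0.0801). The Slc25a36 call (-0.45, limma, adjusted p = 0.0129) was lost without array 1 of pcDNA (0.0502). The Slc2a1 call (-0.46, limma, adjusted p = 0.0314) was lost without array 1 or 2 of pcDNA (0.103 and 0.12) or array 2 or 3 of pCTSH#1 (0.0783 and 0.106). The Slc6a15 call (-0.65, limma, adjusted p = 0.0279) was lost without array 1 or 2 or 3 of pcDNA (0.0619, 0.0874 and 0.0634) or array 3 of pCTSH#1 (0.137).

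A gene's value at 16 h sometimes depended on the probe set. Of the 129 genes 42 had more than 1 probe set, 53 further ones in all, of which 34 were above background on every array. At 6 h in pcDNA no pair was called in opposite directions. At 16 h 8 pairs were, 6 of them with both above background, from the genes Slc43a2, Slc6a8, Slc25a36, Slc6a17, Slc41a2 and Slc35b4. Pairs in which only 1 probe set was called, such as those of Slc44a1, Slc25a23 and Slc39a6 above, are not in this count. Slc43a2, a neutral amino acid carrier, read 8.12, 8.21 and 8.63 at 0 h and 9.26, 9.12 and 9.22 at 16 h on the probe set used, and 8.58, 8.40 and 9.25 at 0 h and 6.57, 6.41 and 6.96 at 16 h on the other. The first rose by 0.88 and the second fell by 2.09, although both had fallen at 6 h (by 0.75 and 0.74).

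For the creatine carrier Slc6a8 the probe set used fell by 1.31 at 16 h and the other rose by 1.58, from 5.84, 6.18 and 6.14 to 7.64, 7.87 and 7.39. For Slc25a36, a carrier of pyrimidine nucleotides like Slc25a33, the set used fell by 0.33 at 16 h and the other rose by 1.84, after falls of 0.93 and 0.97 at 6 h. The magnesium transporter Slc41a2 rose by 1.13 on both at 6 h and then gave -0.42 and 1.24 at 16 h. Slc6a17, a vesicular amino acid carrier, fell by 2.02 on the set used and by 1.48 on another, and rose by 2.16 on one more. Slc35b4 gave -0.51 and 0.26. The same pairs moved apart in pCTSH#1, where Slc43a2 gave 0.95 and -1.68, Slc6a8 -1.44 and 1.20, and Slc25a36 -0.66 and 1.19. The direction at 16 h is therefore not settled for these 6 genes. Where the probe sets fall in the transcripts was not analysed here.

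**Figure D5:**
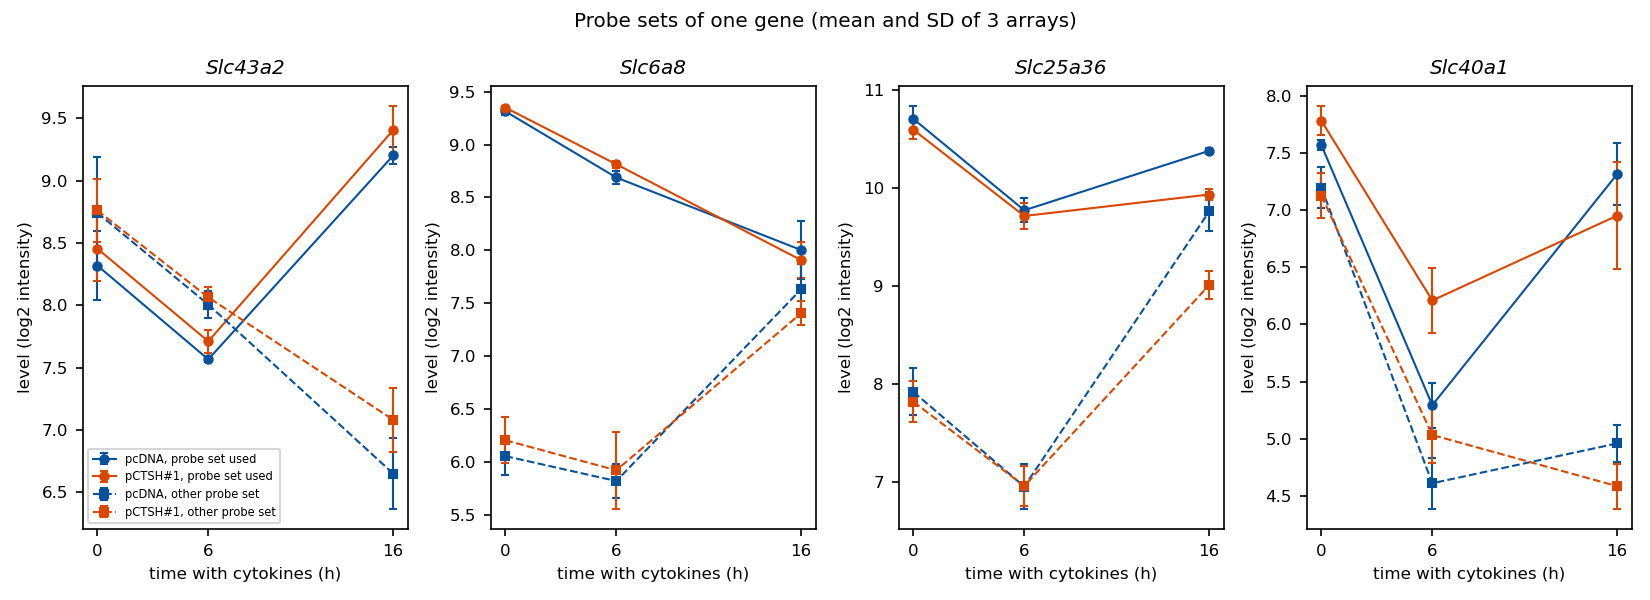
Log2 level (vertical axis, mean and SD of 3 arrays) against hours with cytokines (horizontal axis) for 2 probe sets of each of 4 genes; solid lines are the probe set used, dashed lines the other, blue pcDNA and orange pCTSH#1. The 2 probe sets of Slc43a2, Slc6a8 and Slc25a36 part in direction at 16 h in both lines.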

How the data were processed

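The deposited table holds log2 intensities of 31137 probe sets, which the authors deposited after RMA. The submitters' processing notes list RMA, affy and limma and give no versions. Without 95 array controls, 31042 probe sets were tested. The annotation gave 1 gene symbol for 19063 probe sets, several for 572, and did not list 11407. limma 3.58.1 (R 4.3.3) fitted 1 model of 7 group means to the 21 arrays and gave 13 comparisons, two-sided, with Benjamini-Hochberg adjustment over all 31042 within each; called means an adjusted p below 0.05. The ± gives the model's standard error. RMA equalises the distribution of values between arrays, so a shift of most genes in the same direction would be removed. The limma script was tested on simulated data with known changes in pcDNA at 16 h against 0 h only.

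The 129 genes, the substrate classes (by family number), the partner genes, the motifs and the rule for naming genes (the 10 highest and 10 lowest called without overlap at each time in pcDNA, the 5 highest and 5 lowest in the other comparisons, up to 4 in each class, the 5 of highest level, those next to the level limit, and Slc35d3, Slc25a4, Slc2a1 and Slc16a1) were chosen with earlier results of these data known. Slc30a8 and Slc25a5 were also in that rule but had no probe set of their own. Outside that rule, Slc17a5, Slc22a5, Slc25a1, Slc25a10, Slc25a11, Slc25a12, Slc25a22, Slc25a23, Slc31a2, Slc35b3, Slc35b4, Slc35f5, Slc39a6, Slc7a6 and the partner Tfrc were named after their values were seen. The same holds for Slc2a6, Slc2a8, Slc25a20, Slc25a24 and Slc39a14. Slc25a25 was named only for a match in its promoter.

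As a check of pairing, deviations from group means were correlated between arrays of equal replicate number. All 3 correlations were above 0.1 between INS1 and pcDNA at 0 h (0.133, 0.149 and 0.130) and between pcDNA and pCTSH#1 at 0 h (0.106, 0.124 and 0.239), and in no other pair of groups. The labels do not say what a number shares, so the block was an alternative. Plots used matplotlib 3.10.9 (Python 3.11.15).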

Additional observations from a re-analysis of the deposited data

How the results depend on the processing

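The counts of genes higher or lower were refitted 414 times under the alternatives, and 363 stayed within 1.5 times the value given, among them all counts of the time comparisons. For 147 named values 1911 refits gave 1823 with the same direction and call, 85 that kept the direction and lost the call, and 3 that reversed, all with the mean of all probe sets at 16 h in pcDNA: Slc6a17 (0.0097), Slc43a2 (-0.60) and Slc6a8 (0.13).

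The comparisons of the lines depended on the settings. At 0 h the number higher in pCTSH#1 than in pcDNA was 2 in place of 1 with the replicate block, with centred arrays, with the brighter 50% of probe sets and with trend and robust settings; the number lower was 1 in place of 2 with trend and robust settings, 0 with only the groups compared and 0 with a level limit of 7. At 6 h the number lower was 1 in place of 2 with only the groups compared, with the mean of probe sets and with the limit of 7. At 16 h the number higher was 11 (trend and robust) or 0 (only the groups compared) in place of 7, and the number lower was 7 (replicate block), 1 (only the groups compared), 8 (mean of probe sets) or 2 (limit of 7) in place of 4. The block moved no other count by more than 1.5 times. The test of the 16 h responses gave 1 gene higher with the mean of probe sets. Against INS1 the numbers higher and lower in pCTSH#1 were 1 and 1, both with only the groups compared and with the limit of 7. The cause was not tested.

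With each array left out in turn, the counts at 0 h ran from 1 to 2 higher and 0 to 1 lower, at 6 h from 4 to 5 and 0 to 1, at 16 h from 3 to 13 and 1 to 3, against INS1 from 1 to 3 and 1 to 3, and for the 16 h responses from 0 to 1 higher. Limits of 5 and 7 gave 147 and 103 genes.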

Other observations

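Of the 3 probe sets that name several genes, none was used, so carriers measured only there were not analysed here. Slc66a2, a lysosomal carrier family member, rose by 1.01 ± 0.14 at 6 h in pcDNA (limma, adjusted p = 1.17e-05). At 16 h its difference was -0.43 (adjusted p = 0.0173), a call that was lost with centred arrays (0.0512), with cyclic loess (0.0624) and with only the groups compared (0.0597). It was also lost without array 1 or 2 of pcDNA at 0 h (0.0949 and 0.0664) or array 1 or 2 at 16 h (0.0572 and 0.103). Slc35e4 fell by 0.98 at 6 h and was not called at 16 h (0.16), and Slc35f5 fell by 0.60 at 6 h and rose by 0.49 at 16 h. Slc27a1, a fatty acid transporter, had differences of -0.52 and 0.81. Slc66a3 fell by 0.40 and 0.41.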
